A study of Mus musculus with 8 samples.

Results

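The type I interferon response genes described here are 32 genes that cells switch on when interferon-alpha or interferon-beta binds to them. They were chosen by symbol from a fixed list, with earlier results of these data known. All 32 were found among the 33696 genes listed for each library. Every one of the 32 had at least 1 UMI (unique molecular identifier, a counted transcript molecule) in a called cell. The list was made of sensors (Ifih1, Dhx58, Zbp1, Ddx60), transcription factors (Irf7, Irf9, Stat2), the ISG15 system (Isg15, Usp18, Herc6, Trim25), the IFIT family (Ifit1, Ifit2, Ifit3, Ifit3b), the OAS family (Oas1a, Oas2, Oas3, Oasl1, Oasl2), antiviral effectors (Mx1, Mx2, Rsad2, Cmpk2, Bst2), ADP-ribosyltransferases (Parp9, Parp14) and 5 other induced genes (Ifi27l2a, Ifi44, Ifi35, Xaf1, Rtp4).

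The study measured RNA in single cells of mouse livers bearing hepatocellular carcinoma, in 6 libraries made with a droplet method that reads the 3′ end of transcripts. Male C57BL/6 mice of 8 to 10 weeks received a hydrodynamic tail vein injection of CRISPR-Cas9 vectors against Trp53, a c-Myc transposon and CMV-SB13 transposase, and were killed 4 to 5 weeks later. The 3 control libraries came from Ncr1WT Nr4a1fl/fl mice, and the 3 libraries labelled knockout came from Ncr1iCre Nr4a1fl/fl mice, in which Cre from the Ncr1 gene acts in natural killer (NK) cells and type 1 innate lymphoid cells (ILC1). The question the design puts is what loss of Nr4a1, the gene of the nuclear receptor Nur77, in these lymphocytes does in the tumour-bearing liver. All animals of both groups carried the floxed alleles and the tumour plasmids. Control library 3 pooled 3 mice and knockout library 3 pooled 2 mice, told apart by hashtag antibodies. The labels do not say which animals are behind the libraries numbered 1 and 2.

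Type I interferons bind a receptor made of Ifnar1 and Ifnar2. The receptor's kinases Jak1 and Tyk2 phosphorylate transcription factors such as Stat2, which enters the nucleus with Irf9 in a complex that binds interferon-stimulated response elements in the promoters of target genes. Many of the targets sense or block viral RNA, and some, such as Usp18, restrain the signal. In the liver the pathway is known from viral hepatitis, from tumour immunity and from the activation of NK cells. Many of its targets also respond to interferon-gamma or interferon-lambda, so these genes do not tell the interferons apart.

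The core of the response element reads GAAANNGAAA. That motif was looked for on both strands (TTTCNNTTTC on the other strand, matches allowed to overlap) in windows of 300 bases, 250 before and 50 after each gene's start, from RefSeq on GRCm38.p6. Promoters were in that table for 22 of the 32 members, and 11 of the 22 (50%) held a match, against 1079 of 27025 genes in the table (3.99%). Those with a match were Isg15, Ifit1, Ifit3, Ifit3b, Oas1a, Oas3, Rsad2, Stat2, Ifih1, Ddx60 and Bst2. Usp18, Mx1, Mx2, Oas2, Dhx58, Zbp1, Ifi27l2a, Parp9, Parp14 and Rtp4 were not in the table. A match is a string of letters and was not tested as a binding site. The 250 bases before the start are shown, 5′ to 3′ on the gene's own strand with matches in capitals, for 5 members whose promoters hold a match and whose levels were spread differently over the cell classes below, and for Ifi44, whose window held no match and whose mean level was highest in endothelial-like cells.
Isg15 (chr4:156200819-156201068, minus strand): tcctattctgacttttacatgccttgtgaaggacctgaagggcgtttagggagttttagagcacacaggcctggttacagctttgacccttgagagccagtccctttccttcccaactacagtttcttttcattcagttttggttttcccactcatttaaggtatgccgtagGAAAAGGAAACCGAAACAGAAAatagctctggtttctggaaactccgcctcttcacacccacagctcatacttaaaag
Ifit1 (chr19:34640639-34640888, plus strand): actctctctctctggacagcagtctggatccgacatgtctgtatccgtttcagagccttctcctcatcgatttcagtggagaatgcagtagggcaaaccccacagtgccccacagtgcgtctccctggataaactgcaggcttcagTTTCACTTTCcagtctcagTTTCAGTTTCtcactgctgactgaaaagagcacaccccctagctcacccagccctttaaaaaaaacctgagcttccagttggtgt
Rsad2 (chr12:26456453-26456702, minus strand): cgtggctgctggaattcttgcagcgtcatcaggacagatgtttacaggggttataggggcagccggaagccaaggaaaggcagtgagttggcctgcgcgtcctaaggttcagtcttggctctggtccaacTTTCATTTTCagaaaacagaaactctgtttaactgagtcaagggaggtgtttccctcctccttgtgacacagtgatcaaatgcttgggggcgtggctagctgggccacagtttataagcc
Oas3 (chr5:120777660-120777909, minus strand): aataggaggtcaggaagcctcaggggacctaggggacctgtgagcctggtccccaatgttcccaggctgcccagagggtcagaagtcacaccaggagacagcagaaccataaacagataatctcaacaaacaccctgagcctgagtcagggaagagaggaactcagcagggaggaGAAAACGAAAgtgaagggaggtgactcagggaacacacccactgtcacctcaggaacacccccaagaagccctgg
Bst2 (chr8:71537473-71537722, minus strand): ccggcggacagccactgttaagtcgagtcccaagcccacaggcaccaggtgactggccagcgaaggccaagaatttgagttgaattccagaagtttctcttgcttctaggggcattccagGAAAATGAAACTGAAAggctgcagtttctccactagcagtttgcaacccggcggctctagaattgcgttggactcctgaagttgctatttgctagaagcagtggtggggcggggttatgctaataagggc
Ifi44 (chr3:151749911-151750160, minus strand): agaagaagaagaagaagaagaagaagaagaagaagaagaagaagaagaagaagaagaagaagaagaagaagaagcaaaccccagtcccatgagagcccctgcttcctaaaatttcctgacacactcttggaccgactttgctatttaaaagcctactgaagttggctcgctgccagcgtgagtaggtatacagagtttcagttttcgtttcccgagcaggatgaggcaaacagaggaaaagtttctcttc
In the Isg15 promoter 3 matches overlapped in 1 run that ended 56 bases before the start. The 2 matches of Ifit1 stood apart from each other. The 2 of Bst2 overlapped.

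After filtering, 20082 cells were kept, from 134 in knockout 2 to 9179 in control 3, and their median UMIs per cell ranged from 1925 in knockout 2 to 3410 in control 3 and 3867 in knockout 1. The libraries numbered 2 stood apart: the median mitochondrial share of their barcodes was 27.9% in control 2 and 75.1% in knockout 2, against 6.68% to 10.0% in the others. Between 0 and 14 kept barcodes were shared by any pair of libraries. Cells were assigned to 18 classes from the UMIs of marker genes, none of them a member, and a class is called "-like" because no author annotation was used. Ncr1, the gene that carries Cre, was 1 of the 12 markers of NK-like cells, and calls without it were not made. All of each class's own markers were detected in the 9 classes described. The classes were called by these same markers, so this does not check their names. All 12 hepatocyte markers were also detected in each of the 9 classes. Nr4a1 in NK-like cells was at 77.3, 32.7 and 56.6 CPM (the UMIs of a gene scaled to 1000000 UMIs of its class) in control 1, 2 and 3 and at 157, 0 and 67.6 CPM in knockout 1, 2 and 3, and Ncr1 at 769, 676 and 643 CPM against 187, 565 and 280.1 CPM. Counts from the 3′ end do not check a deletion elsewhere in the gene, and the labels do not give the deleted part, so Nr4a1 levels do not test the labels.

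As a share of the UMIs of the class, monocyte-like cells carried the highest mean summed level of the 32 members and hepatocyte-like cells the lowest. In monocyte-like cells the sum was 5445, 4718 and 6275 CPM in control 1, 2 and 3 and 7309, 4271 and 5409.8 CPM in knockout 1, 2 and 3, with a mean of 5571 ± 1094 CPM (SD, n = 6 libraries). In NK-like cells, the class in which Cre acts, the sum was 1139, 895 and 1238 CPM in the controls and 1261, 1313 and 1048 CPM in the knockouts, with a mean of 1149 ± 156 CPM (SD, n = 6 libraries). Every library of the monocyte-like class lay above every library of the NK-like class, and the control and knockout values overlapped in both classes.

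Between these, plasmacytoid dendritic (pDC)-like cells stood at 4921 ± 2152 CPM (SD, n = 5 libraries), T-like cells at 2715 ± 667 CPM (SD, n = 5), neutrophil-like cells at 2653 ± 991 CPM (SD, n = 6) and endothelial-like cells at 2537 ± 712 CPM (SD, n = 6). B-like cells were at 1250.2 ± 268 CPM, basophil- or mast-like cells at 1084 ± 427 CPM and hepatocyte-like cells at 484 ± 87.8 CPM (SD, n = 5 each). Knockout 2 gave fewer than 10 cells in the classes with 5 libraries. Of the classes seen in fewer libraries, macrophage-like cells stood at 4411 CPM (n = 4) and type 2 dendritic (cDC2)-like cells at 3613 CPM (n = 4). Stellate- or fibroblast-like cells stood at 3351 CPM (n = 2) and mature dendritic-like cells at 2963 CPM (n = 4). The rest lay between 529 CPM in platelet- or megakaryocyte-like and 2323 CPM in plasma-like cells. In control 1 macrophage-like cells, at 6420 CPM, exceeded monocyte-like cells, at 5445 CPM. The order of neighbours was not the same in every library: monocyte-like exceeded pDC-like cells in 4 of 5 libraries, T-like exceeded neutrophil-like cells in 3 of 5 and neutrophil-like exceeded endothelial-like cells in 3 of 6. Endothelial-like cells exceeded B-like cells, and basophil-like exceeded hepatocyte-like cells, in 5 of 5 libraries. The low pDC value was that of control 2, at 1189 CPM from 12 cells, in which Bst2 was at 216 CPM against 3293 to 4132 CPM in the other 4.

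**Figure D1:**
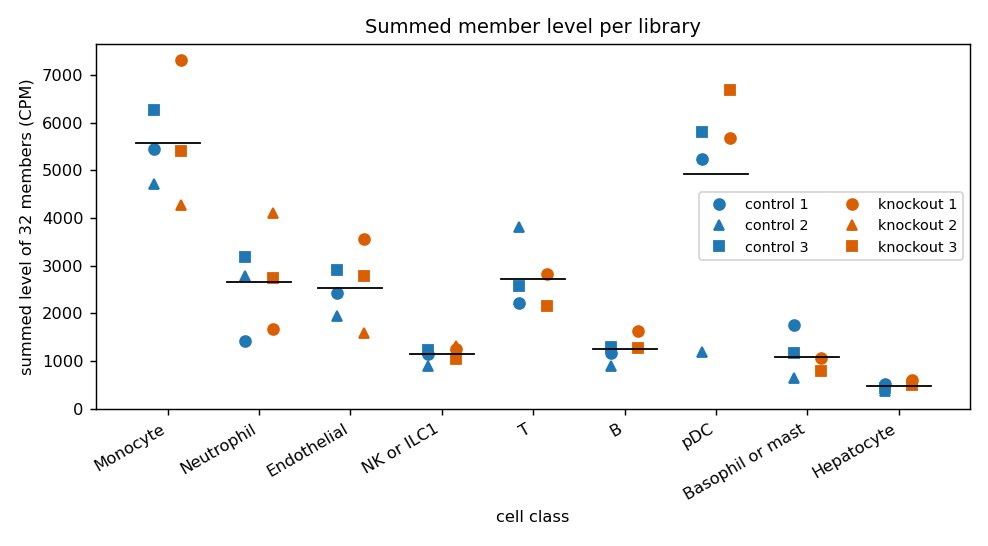
Summed level of the 32 members (CPM, vertical axis) in 9 cell classes (horizontal axis), 1 point per library of at least 10 cells, with the mean as a line. Monocyte-like libraries lie between 4271 and 7309 CPM and NK-like libraries between 895 and 1313 CPM, and control and knockout points overlap in every class shown.

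Bst2, which tethers budding virus to the cell surface, and Ifi27l2a, an interferon-induced gene of the Ifi27 family, made up much of the sum in some classes. Without these 2 genes the mean sum was 3383 CPM in monocyte-like, 1943 in neutrophil-like, 1685 in endothelial-like, 1304 in T-like, 1254 in pDC-like, 993 in NK-like, 641 in B-like and 237 CPM in hepatocyte-like cells. The pDC-like class, near the top with them, then lay below T-like cells. Free RNA was measured in barcodes of at most 100 UMIs in the libraries numbered 3, where the members summed to 1438 CPM in control 3 and 933 CPM in knockout 3. In it Ifi27l2a stood at 556 and 162 CPM, Bst2 at 212 and 209 CPM, Isg15 at 87.3 and 46.6 CPM and Mx1 at 11.8 and 11.5 CPM. Marker genes of hepatocytes summed to 36.5 to 528 CPM in NK-like, 699 to 1545 CPM in monocyte-like and 765 to 2722 CPM in neutrophil-like libraries. The part of free RNA in the class levels was not tested. The NK-like level of Ifi27l2a, 61.9 and 38.6 CPM in those libraries, lay below that of the free RNA, and the hepatocyte-like level was 11.4 and 3.14 CPM.

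Classes were compared in the 4 that had at least 10 cells in all 6 libraries, each against the mean of the other 3, in 1 edgeR quasi-likelihood fit with a term for library, over 8362 genes. Of the members 30 were tested. Dhx58 and Ifit3b did not pass the filter on low counts. In monocyte-like cells 20 members were higher and 0 lower at an adjusted p of at most 0.05 (background 23.2% of genes higher and 16.5% lower), and the median member difference was 1.22 on the log2 scale against -0.01 over all genes. In NK-like cells 1 was higher and 21 lower (background 27.9% and 29.7%), with a median of -1.02 against -0.02. Neutrophil-like cells split into 11 higher and 9 lower (background 24.0% and 24.1%), with medians of 0.20 and -0.21, and endothelial-like cells into 5 higher and 8 lower (background 33.0% and 23.9%), with medians of -0.01 and 0.12.

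These 4 comparisons share their libraries and are read side by side. With libraries scaled by total counts alone the median of all genes moved from -0.21 to -0.85 in neutrophil-like, from 0.12 to 0.44 in endothelial-like, from -0.02 to 0.18 in NK-like and from -0.01 to 0.11 in monocyte-like cells, and the neutrophil-like split became 8 higher and 13 lower. Over 12 alternative settings 18 of the 20 members higher in monocyte-like cells passed every time, as did 12 of the 21 lower in NK-like cells, 8 of 11 higher and 6 of 9 lower in neutrophil-like cells, and 2 of 5 higher and 6 of 8 lower in endothelial-like cells. No member called in these 4 classes passed in the other direction under any of the 12.

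**Figure D2:**
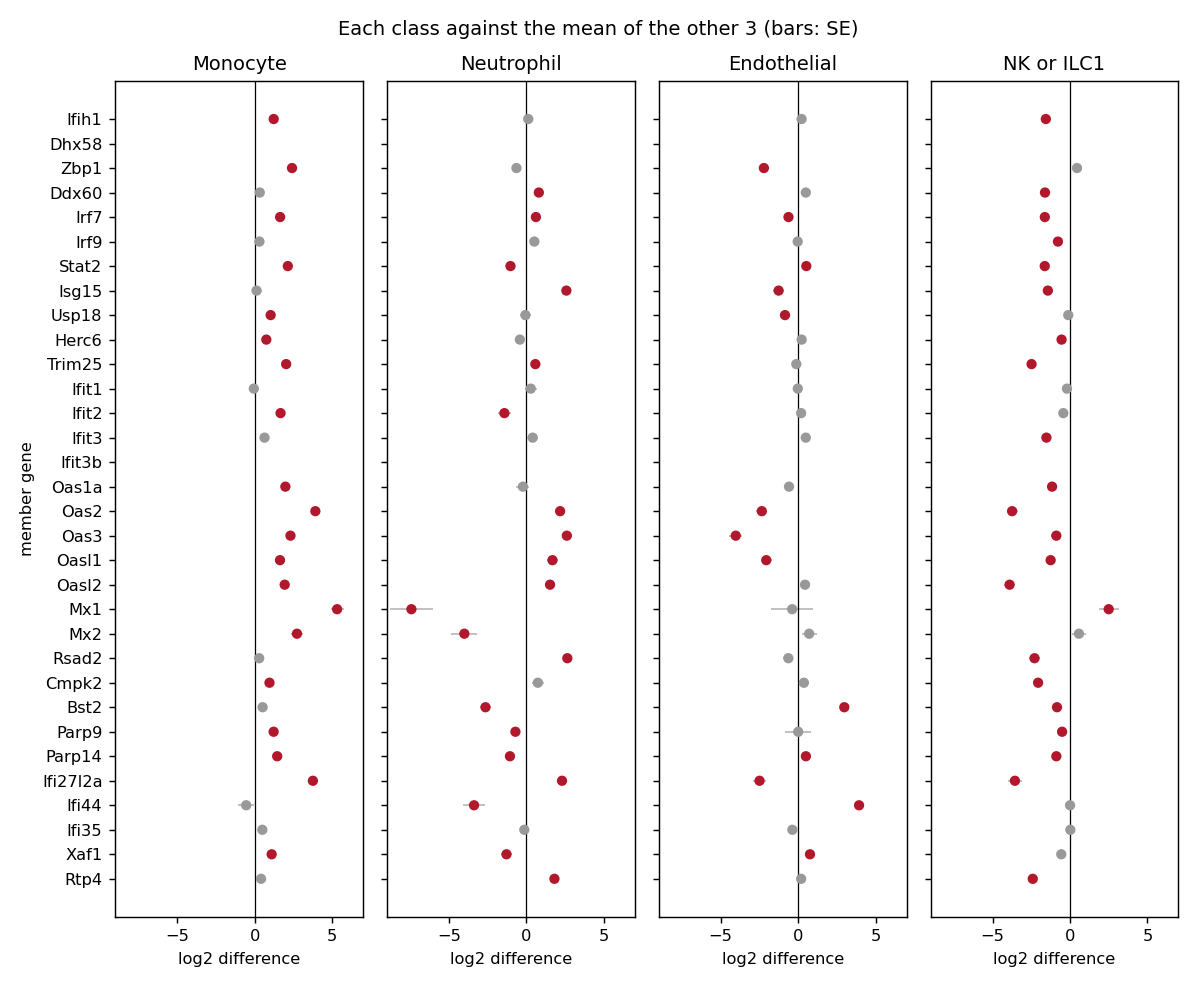
Log2 difference of each class from the mean of the other 3 (horizontal axis) for each member (vertical axis), with bars of 1 SE. Red points passed an adjusted p of 0.05 and grey points did not, and the 20 red points of monocyte-like cells all lie to the right of 0 while 21 of the 22 of NK-like cells lie to the left.

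Of the sensors, Ifih1 (MDA5, which binds long viral RNA) was higher in monocyte-like cells by 1.23 on the log2 scale (SE 0.22) and lower in NK-like cells by -1.56 (SE 0.24). Zbp1, which senses Z-form nucleic acid, was at 171, 204 and 174 CPM in the monocyte-like controls and 205, 242 and 149 CPM in the knockouts, and differed by 2.41 (SE 0.21). It was lower in endothelial-like cells by -2.22 (SE 0.28), and its difference in NK-like cells, 0.45 (SE 0.21), gave an adjusted p of 0.07005 in edgeR. Ddx60 was lower in NK-like cells by -1.61 (SE 0.28).

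The transcription factors Irf7, Irf9 and Stat2 were all lower in NK-like cells, and Irf7 and Stat2 were higher in monocyte-like cells. Irf7, which amplifies interferon production, was at 136, 87.4 and 182 CPM in monocyte-like control 1, 2 and 3 and at 191, 66.0 and 154 CPM in knockout 1, 2 and 3. In NK-like cells it was at 21.6, 23.1 and 43.3 CPM and at 35.3, 7.06 and 25.4 CPM. The ranges of the 2 classes did not overlap, and the differences from the other 3 classes were 1.64 (SE 0.20) and -1.62 (SE 0.23). Stat2, which acts in a complex with Irf9, was at 125, 320.3 and 152 CPM in the monocyte-like controls and 195, 176 and 147 CPM in the knockouts. In NK-like cells Stat2 was at 21.6, 38.5 and 25.1 CPM and at 15.8, 42.4 and 18.1 CPM. Stat2 was lower in neutrophil-like cells, by -1.03 (SE 0.30), while Irf7 was higher there, by 0.61 (SE 0.24).

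Isg15, a ubiquitin-like protein that is joined to other proteins and also secreted, had its highest mean level of the 9 classes described in neutrophil-like cells. Its levels there were 317, 701 and 634 CPM in control 1, 2 and 3 and 308, 1051 and 549 CPM in knockout 1, 2 and 3. In monocyte-like cells they were 368, 146 and 236 CPM and 479, 0 and 213 CPM, where the 0 stands for fewer than the 66.0 CPM that 3 counts would give in the 16 cells of knockout 2. The neutrophil-like difference was 2.58 (SE 0.30, adjusted p = 6.144e-09 in edgeR), and Isg15 was lower in endothelial-like cells by -1.27 (SE 0.34) and in NK-like cells by -1.43 (SE 0.34). Trim25, an E3 ligase that activates the RNA sensor RIG-I, was higher in monocyte-like cells by 2.03 (SE 0.20) and lower in NK-like cells by -2.48 (SE 0.24). Usp18, which removes ISG15 and restrains the receptor, was higher in monocyte-like cells by 1.03 (SE 0.25) and did not pass in NK-like cells, at -0.11 (SE 0.25).

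The IFIT proteins bind viral RNA that lacks host caps. Ifit1 passed in 0 of the 4 classes, with differences between -0.20 and 0.28. In NK-like cells it was at 13.3, 21.2 and 37.6 CPM in the controls and 25.6, 14.1 and 35 CPM in the knockouts, and in monocyte-like cells at 26.4, 29.1 and 29.9 CPM and 31.2, 22 and 24.3 CPM. These ranges overlapped. Ifit2 was higher in monocyte-like cells by 1.67 (SE 0.28) and lower in neutrophil-like cells by -1.42 (SE 0.41). Ifit3 was lower in NK-like cells by -1.52 (SE 0.28), at 13.3, 5.78 and 26.6 CPM in the controls and 30.4, 14.1 and 22.9 CPM in the knockouts. Ifit3 and Ifit3b are near-identical copies that can share reads, as can members of the OAS and Mx families, so the division of counts between copies is uncertain.

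All 5 OAS family genes, whose products make the messenger that activates RNase L or are inactive relatives of those enzymes, were higher in monocyte-like cells, by 1.63 to 3.92, and all 5 were lower in NK-like cells, by -0.88 to -3.90. The NK-like calls of Oas2 and Oasl2 held under all 12 alternatives, and those of Oas1a, Oas3 and Oasl1 did not. Oas2 was at 84.6, 146 and 107 CPM in the monocyte-like controls and 125, 176 and 109 CPM in the knockouts, against 2.82 CPM or less in the 4 NK-like libraries with an Oas2 UMI and 0 UMIs in control 2 and knockout 2, where 3 counts would give 5.78 and 21.2 CPM. In neutrophil-like cells 4 of the 5 were higher (Oas2, Oas3, Oasl1 and Oasl2, by 1.52 to 2.60), and in endothelial-like cells Oas2, Oas3 and Oasl1 were lower, by -2.35, -4.03 and -2.06.

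The antiviral effectors differed between classes in opposite directions. Mx1, a GTPase against influenza viruses whose gene in C57BL/6 mice is known to carry a disabling deletion, had 0 UMIs in 1599093 UMIs of neutrophil-like cells, and the geometric mean of the other 3 classes was at least 13-fold above the 1.88 CPM that 3 counts over the class would give. It was at 143, 117 and 97.1 CPM in the monocyte-like controls and 154, 110.1 and 128 CPM in the knockouts, and it was the 1 member higher in NK-like cells, by 2.50 (SE 0.65, adjusted p = 0.001553 in edgeR), at 24.1, 27.0 and 26.1 CPM and 34.1, 113 and 18.1 CPM. That fitted value depends on how the zeros are treated. With zero classes set at 3 counts the NK-like difference was 2.20 and the monocyte-like one 4.37. Endothelial-like cells had Mx1 UMIs in 2 of 6 libraries. The related Mx2 was also lower in neutrophil-like cells, by -4.01 (SE 0.83).

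Rsad2 (viperin, which makes a chain-terminating nucleotide) went the other way. It was at 95.5, 358 and 205 CPM in neutrophil-like control 1, 2 and 3 and at 153, 95.6 and 292 CPM in knockout 1, 2 and 3, and it was higher there by 2.64 (SE 0.30). In NK-like cells it was at 22.8, 3.85 and 37.1 CPM and at 54.8, 21.2 and 9.66 CPM. Bst2 was highest among the 4 classes in endothelial-like cells, at 675, 631 and 975 CPM in the controls and 838, 502 and 1011 CPM in the knockouts, a difference of 2.97 (SE 0.24), and it was lower in neutrophil-like cells by -2.64 (SE 0.35). Both promoters hold the response element motif. Among the other members higher in neutrophil-like cells, the promoters of Isg15, Oas3 and Ddx60 held a match. Those of Oasl1, Oasl2, Irf7 and Trim25 held none, and Oas2, Ifi27l2a and Rtp4 had no promoter to search.

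Parp9 and Parp14, ADP-ribosyltransferases of the interferon response, were both higher in monocyte-like cells, by 1.22 and 1.45, and both lower in NK-like and neutrophil-like cells. Of the other induced genes, Ifi27l2a was at 2096, 1922 and 2927 CPM in the monocyte-like controls and 2631, 220.1 and 2116 CPM in the knockouts, with the low value in knockout 2. In NK-like cells it was at 51.3, 13.5 and 61.9 CPM and 35.3, 84.7 and 38.6 CPM. It was higher in monocyte-like and neutrophil-like cells, by 3.76 (SE 0.34) and 2.30 (SE 0.35), and lower in NK-like and endothelial-like cells, by -3.56 (SE 0.46) and -2.50 (SE 0.43). Ifi44 was at 117, 55.8 and 80.9 CPM in the endothelial-like controls and 187, 57.9 and 73.1 CPM in the knockouts, and it differed by 3.93 (SE 0.28, adjusted p = 7.061e-15 in edgeR). NK-like cells held at most 28.2 CPM of it, and the zeros of monocyte-like and neutrophil-like cells in the libraries numbered 2 have floors of 44.7 to 95.6 CPM, so that not all of them can be ranked against these levels.

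**Figure D3:**
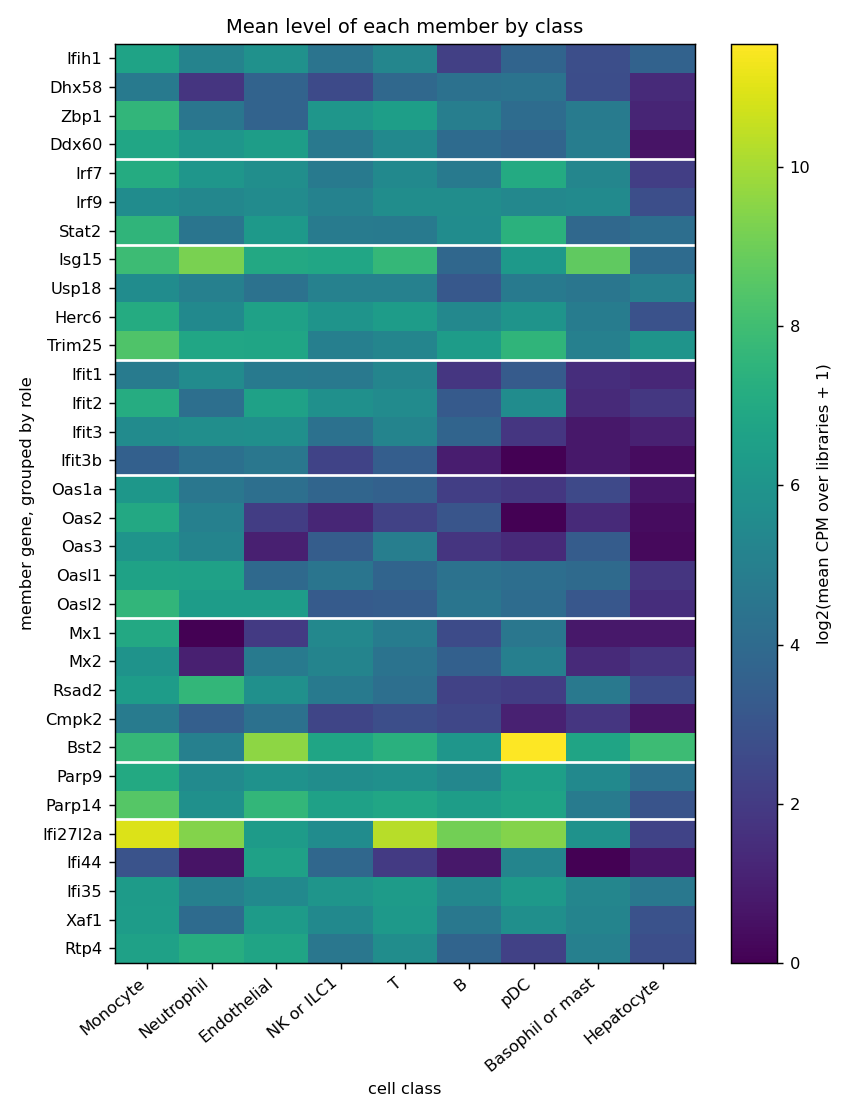
Mean level of each member (rows, grouped by role) in each of 9 classes (columns), as log2 of the mean CPM over libraries plus 1. The 32 members do not share 1 pattern: Bst2 is brightest in pDC-like cells, Ifi27l2a in monocyte-like cells and Isg15 in neutrophil-like cells, while Mx1 is at 0 in neutrophil-like cells.

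T-like, B-like, pDC-like, basophil- or mast-like and hepatocyte-like cells were set beside these in the 5 libraries other than knockout 2, each class against the mean of the other 8, over 10499 genes and 31 members. Monocyte-like cells again had most members higher, 30 against 0 lower (background 27.8% and 19.9%). Endothelial-like cells had 17 higher and 3 lower (background 31.6% and 25.0%), neutrophil-like cells 17 and 3 (25.0% and 22.6%) and T-like cells 16 and 4 (27.0% and 17.1%). NK-like cells had 9 higher and 5 lower (27.0% and 17.9%), pDC-like cells 8 and 6 (15.0% and 11.8%), B-like cells 4 and 12 (28.0% and 22.5%), basophil- or mast-like cells 1 and 11 (17.6% and 11.4%) and hepatocyte-like cells 2 and 25 (44.1% and 35.7%).

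Ifit3, Oas1a and Herc6 were lower in NK-like cells against the other 3 classes and higher against the mean of the other 8, by 0.76 (SE 0.30), 0.86 (SE 0.24) and 0.44 (SE 0.15). Ifit1 did not pass against myeloid and endothelial cells and was higher in NK-like cells by 1.84 (SE 0.21) against the mean of the other 8, as was Ifi44 by 2.03 (SE 0.43). Mx1 was higher in both comparisons, here by 2.45 (SE 0.34). Ifi27l2a stayed lower, by -2.64 (SE 0.39). In T-like cells Ifi27l2a was at 817, 2248 and 1241 CPM in the controls and 1117 and 823 CPM in knockout 1 and 3, higher by 3.07 (SE 0.26). Mx1 (2.88, SE 0.28), Ifit1 (2.58, SE 0.17) and Oas3 (1.80, SE 0.23) were also higher in T-like cells.

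Hepatocyte-like cells had the lowest levels of most members as a share of the UMIs of the class. Per cell they held a median of 18 member UMIs at a median depth of 47147 UMIs. The medians were 15 at 2664.5 UMIs in monocyte-like and 3 at 4542 UMIs in NK-like cells. Ifi27l2a was at 1.29 to 11.4 CPM in their 5 libraries, lower by -6.27 (SE 0.50), and Ddx60, Oas3 and Zbp1 were lower by -5.15, -4.58 and -4.47. Bst2 and Usp18 were higher, by 0.60 (SE 0.22) and 0.50 (SE 0.15), with Bst2 at 277, 140 and 203 CPM in the controls and 315 and 282 CPM in the knockouts, but neither passed when libraries were scaled by total counts. Bst2 also set pDC-like cells apart, by 3.94 (SE 0.19), along with Ifi44 (3.28, SE 0.58), while Rtp4 was lower there by -3.21 (SE 0.69) and Oas2 had 0 UMIs, which puts the geometric mean of the other 8 classes at least 1.38-fold above the floor. B-like cells were lower in Isg15 (-3.43, SE 0.40), Ifih1 (-2.51, SE 0.33), Rsad2 (-2.40, SE 0.58) and Bst2 (-1.77, SE 0.29).

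Basophil- or mast-like cells passed as lower in Ifit1, Ifit2 and Ifit3, which had 1, 2 and 1 UMIs in the class. The fitted differences of -3.38, -3.81 and -4.10 are no measure of size, since without single libraries they reached -8.16, -9.38 and -8.17, and Ifit1 and Ifit3 did not pass under every alternative. The class had 0 UMIs of Ifi44, which puts the geometric mean of the other classes at least 1.73-fold above the floor. Isg15 alone was higher there, by 2.27 (SE 0.26), at 929, 94.2 and 487 CPM in the controls and 398 and 207 CPM in the knockouts. The 12 genes used as neutrophil markers, Hdc among them, reached a median sum of 8148 CPM in this class. Whether these UMIs came from neutrophils or from the class itself was not tested, nor was a neutrophil part in its Isg15 level. In endothelial-like cells Ifi44 (5.21, SE 0.27), Ifit3 (2.27, SE 0.26) and Oasl2 (2.14, SE 0.24) were higher and Oas3 (-2.14, SE 0.52) lower. Monocyte-like cells were led by Oas2 (5.59, SE 0.20), Mx1 (5.04, SE 0.22), Ifi27l2a (3.94, SE 0.24) and Oasl2 (3.46, SE 0.20), and neutrophil-like cells, with Mx1 at 0, by Rsad2 (4.45, SE 0.30), Oas2 (4.09, SE 0.40) and Oas3 (3.58, SE 0.32).

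The members were also counted cell by cell. Each cell was thinned to 1000 UMIs so that depth was equal, and cells with at least 5 different members were counted. Their share was 30.3% in monocyte-like, 11% in neutrophil-like, 7.80% in T-like, 7.09% in endothelial-like, 4.84% in pDC-like, 3.63% in NK-like (43 of 1185 cells), 1.26% in B-like and 0.232% in hepatocyte-like cells, in which the summed CPM was lowest. Without thinning the shares were 69.0%, 32.6%, 46.0%, 44.3%, 44.8%, 31.6%, 10.5% and 55.4%, in the same order, at median depths of 2401.5 to 4542 UMIs, and 47147 in hepatocyte-like cells. Thinning left out 47 NK-like and 84 monocyte-like cells and between 17 and 218 cells of each of the other 6 classes that were shallower. Among classes seen in fewer libraries the thinned share was 19.6% in macrophage-like, 18.6% in cDC2-like and 14.3% in platelet- or megakaryocyte-like cells. It was 11.9% in stellate- or fibroblast-like cells and 1.74% to 10.1% in the rest. NK-like shares were 4.40%, 1.77% and 3.68% in control 1, 2 and 3 and 3.61%, 7.14% and 2.78% in knockout 1, 2 and 3, so the groups overlapped. Monocyte-like shares were 21.4%, 0% (of 13 cells) and 26.2% in the controls and 41.0%, 37.5% (of 16) and 28.1% in the knockouts, without overlap. B-like shares (0.446%, 0% and 1.01% against 2.30% and 1.53% in knockout 1 and 3) were also all higher in the knockouts. So were pDC-like shares (0% and 3.90% in control 2 and 3 against 8.57% and 3.92% in knockout 1 and 3). The rest of the 9 classes described overlapped. No share was tested.

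**Figure D4:**
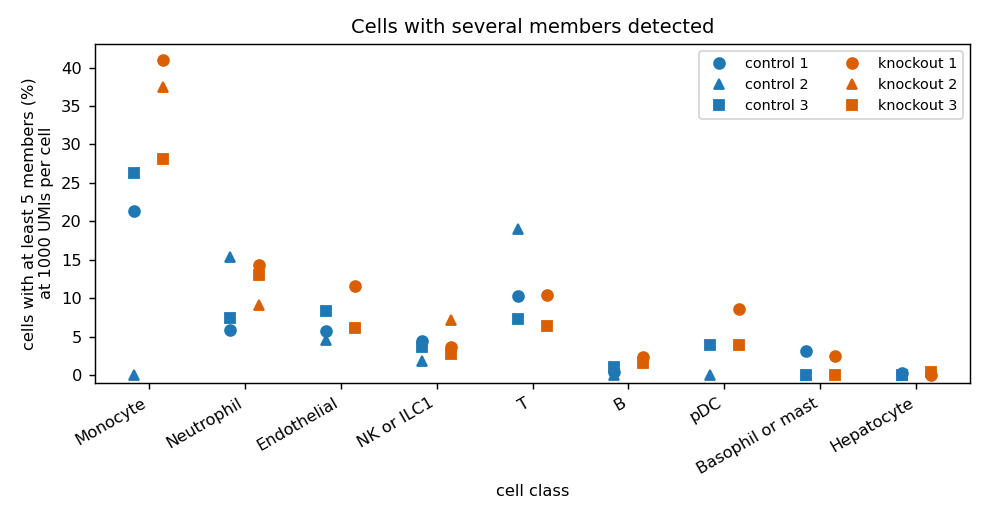
Share of cells (%, vertical axis) with at least 5 members detected after thinning each cell to 1000 UMIs, by class (horizontal axis), 1 point per library. Monocyte-like cells had the highest share with the cells of all libraries pooled, 30.3%. Their libraries run from 0% in control 2, of 13 cells, to 41.0% in knockout 1, while NK-like libraries lie between 1.77% and 7.14%.

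Knockout and control libraries were then compared class by class with edgeR. In NK-like cells 25 members were tested and 0 passed an adjusted p of 0.05 (background 0 of 7675 genes, 0%). At an unadjusted p below 0.05 there was 1 member, Ifih1, against 1.98% of all genes, and DESeq2 called 0. The member median was -0.00 on the log2 scale, 12 of 25 members had a positive sign, and the median SE of a member was 0.34. P-values measure the spread between these libraries, which the labels call biological replicates, and cells were not treated as replicates.

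The NK-like members with the smallest p were Ifih1, Mx2, Ifi35 and Rtp4. Ifih1 was at 38.7, 19.3 and 24.8 CPM in control 1, 2 and 3 and at 10.9, 14.1 and 18.1 CPM in knockout 1, 2 and 3, so all knockouts lay below all controls. Its difference was -0.98 (SE 0.37, adjusted p = 0.9999 in edgeR), and it turned to 0.25 when NK-like cells were taken from clusters of all cells. Mx2 was at 10.8, 9.63 and 16.9 CPM in the controls and 6.09, 134 and 39.8 CPM in the knockouts, a difference of 1.43 (SE 0.67) that overlapped and was highest in knockout 2, where it rested on 19 UMIs. Without that library it was 0.75. Ifi35, a regulator of innate signalling, was at 48.8, 53.9 and 57.8 CPM against 60.9, 84.7 and 74.9 CPM (0.39, SE 0.23), and Rtp4, a negative regulator of the response, at 27.3, 28.9 and 25.8 CPM against 17.0, 14.1 and 22.9 CPM (-0.48, SE 0.29). Neither overlapped between groups, and neither passed. Groups that do not overlap were found for these 3 of the 25 members tested (Ifih1, Ifi35 and Rtp4) and for 546 of 7675 genes (7.11%).

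The other members whose levels were followed in every class also did not pass in NK-like cells. Isg15 was at 129, 50.1 and 111 CPM in the controls and 164, 84.7 and 146 CPM in the knockouts (0.47, SE 0.32). Bst2 was at 143, 48.1 and 119 CPM against 150, 84.7 and 106 CPM. The differences of Ifit1 (0.11, SE 0.41), Irf7 (-0.21, SE 0.39), Stat2 (-0.42, SE 0.36) and Rsad2 (0.24, SE 0.58) did not pass. In the 5 mice of the libraries numbered 3, the summed NK-like level was 920.4, 1245 and 1176 CPM in the control mice and 987 and 1477 CPM in the knockout mice, which overlapped.

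In monocyte-like cells 30 members were tested and 0 passed (background 0 of 6942 genes, 0%), with 1 below an unadjusted p of 0.05, against 1.82% of all genes, and 0 by DESeq2. The median was 0.22 against 0.01 over all genes, and 24 of 30 were positive. The median ranged from -0.08 to 0.39 as each library was left out, with the lowest value without knockout 1. Oasl1 was at 63.4, 0 and 96.3 CPM in the controls and 209, 132 and 100.4 CPM in the knockouts (0.96, SE 0.44), Mx2 at 52.8, 0 and 49.6 CPM against 108, 88.1 and 65.4 CPM (0.80, SE 0.39), and Herc6 (0.55, SE 0.39) and Oasl2 (0.46, SE 0.36) came next. Both genes at 0 are so in control 2, where 24 cells set a floor of 87.4 CPM.

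In T-like cells 32 members were tested in 5 libraries and 0 passed (background 0 of 11395 genes, 0%), with 4 below an unadjusted p of 0.05, against 2.24% of all genes, and 0 by DESeq2. The 4 were Ifi44 (2.32, SE 0.77), Ifit2 (0.84, SE 0.28), Oasl1 (0.98, SE 0.36) and Mx2 (0.95, SE 0.35). Ifit2 was at 47.9, 13 and 34.3 CPM in the controls and 66.0 and 68.6 CPM in knockout 1 and 3. Ifi44 was low throughout, at 0, 0 and 1.55 CPM against 9.27 and 3.90 CPM. In control 1 and 2, 3 counts would give 3.60 and 39.0 CPM, so the 0 of control 2 cannot be ranked below the knockouts. The T-like median was 0.16 against 0.02 over all genes, and -0.02 without knockout 1.

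In the other classes 0 members passed either, by edgeR or by DESeq2. Endothelial-like cells gave 0 of 21 (background 0 of 5886 genes, 0%; 0 members below an unadjusted p of 0.05, against 1.33% of all genes) with a median of 0.29 (-0.015 without knockout 1) and Ifi27l2a at -0.87 (SE 0.56), Herc6 at 0.59, Ifit3 at 0.66 and Parp9 at 0.57. Neutrophil-like cells gave 0 of 11 (0 of 2944 genes, 0%; 0 members, against 0.917%), with a median of 0.06 and Irf7 at 0.52 (SE 0.53), Ddx60 at -0.32, Oasl2 at -0.19 and Isg15 at 0.17. B-like cells gave 0 of 25 (0 of 9669 genes, 0%; 1 member, Ifit2, 0.96, SE 0.44, against 1.55%), with a median of 0.28 (-0.02 without knockout 1), Mx2 at 0.80, Ifi27l2a at 0.45 and Trim25 at 0.44. Hepatocyte-like cells gave 0 of 30 (0 of 14239 genes, 0%; 0 members, against 1.26%), with a median of 0.18 and Bst2 at 0.52, Isg15 at 0.69, Zbp1 at 1.12 and Ifi27l2a at -1.27.

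In pDC-like cells all 11 members tested were positive and 0 passed (0 of 3887 genes, 0%; 0 members below an unadjusted p of 0.05, against 1.08% of all genes), with a median of 0.77 against 0.11 over all genes. Irf7, on which pDC interferon production depends, was at 84.4, 0 and 160 CPM in the controls and 195 and 215 CPM in knockout 1 and 3 (0.99, SE 0.71). The 84.4 CPM rested on 2 UMIs, the 0 of control 2 has a floor of 108 CPM, and the difference ran from 0.50 without control 2 to 2.61 without control 3. Trim25 (0.81), Parp14 (0.92) and Ifi44 (1.18) had the other smallest p-values. Control 1 and 2 held 11 and 12 pDC-like cells, and without either library the median stayed between 0.38 and 0.87, as it did without any other. Basophil- or mast-like cells gave 0 of 5 members (6 of 3821 genes, 0.157%; 0 members below an unadjusted p of 0.05, against 11.5%), with a median of -0.55 and Bst2 at -0.55, Ifi27l2a at -0.98, Isg15 at -0.69 and Ifi35 at 0.51.

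**Figure D5:**
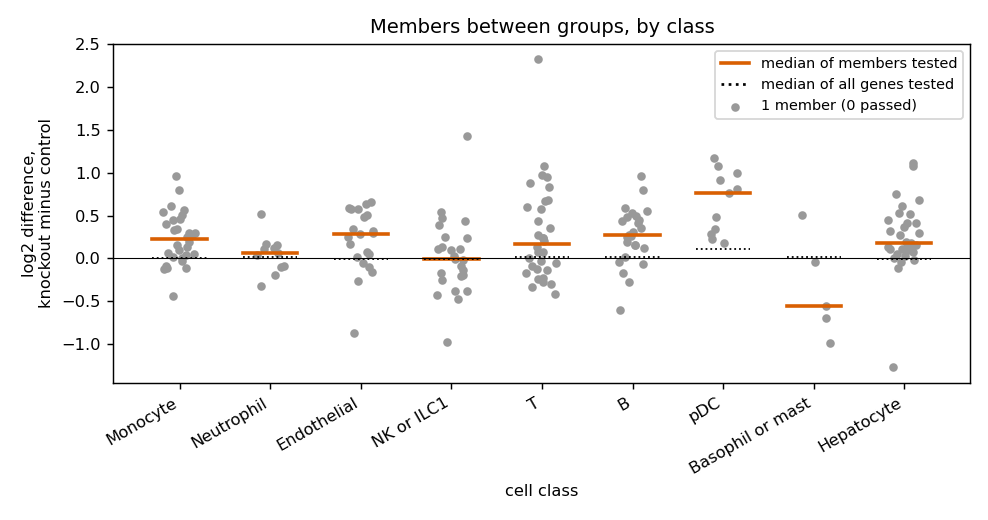
Log2 difference of knockout from control libraries (vertical axis) for each member tested (1 grey point each) by class (horizontal axis), with the member median in orange and the median of all genes tested dotted. Member medians run from -0.55 in basophil- or mast-like cells to 0.77 in pDC-like cells, and 0 members passed in any class.

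Whether the knockout difference in NK-like cells was unlike that in T-like cells was tested as an interaction in the 5 libraries that held both. It passed for 0 of 31 members (background 9 of 9752 genes, 0.0923%), with 4 below an unadjusted p of 0.05, against 4.16% of all genes: Ifi44 (-2.79, SE 0.75, adjusted p = 0.2844 in edgeR), Oasl1 (-1.48, SE 0.44, adjusted p = 0.421), Ddx60 (-0.82, SE 0.39) and Ifit3b (-1.61, SE 0.78). DESeq2 was not run on it. Without knockout 1, which leaves 1 knockout library assumed to vary like the others, Ifit2 passed at -1.84 (SE 0.42, adjusted p = 0.01046).

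The other genes of the pathway were read from a list of ligands, receptors, kinases, adaptors, inhibitors and further induced genes. Of the ligands, 89 UMIs of 6 of 17 genes were found in 52 of 20082 cells, and 59 of them were Ifnb1, interferon-beta. Monocyte-like cells held 11 of the UMIs in 6 cells, hepatocyte-like and T-like cells 9 each, macrophage-like cells 6 and NK-like cells 2, while ambiguous cells held 22 and uncalled cells 25. No background was measured for these single UMIs. pDC-like cells, the known specialists of interferon-alpha, held 0 in 203 cells, which allows a share of up to 1.48% of cells with a ligand UMI. The receptor genes were not absent from NK-like cells: Ifnar1 was at 48.8, 61.6 and 54.0 CPM in the controls and 65.7, 63.5 and 60.4 CPM in the knockouts (0.22, SE 0.22), and Ifnar2 at 122, 131 and 100.3 CPM against 92.5, 141 and 112 CPM (-0.08, SE 0.22).

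Against the other 3 classes Ifnar1 did not pass in NK-like cells (-0.29, SE 0.20) and Ifnar2 was lower (-0.93, SE 0.22), while Tyk2 (0.96, SE 0.22), Jak1 (0.53, SE 0.23) and Socs1, an inhibitor of the kinases (1.54, SE 0.22), were higher. In monocyte-like cells Ifnar2 (0.57, SE 0.21) and Tyk2 (0.91, SE 0.24) were higher and Socs1 was lower (-0.80, SE 0.29). pDC-like cells had the highest mean levels of both receptor genes among the 9 classes, with Ifnar2 at 518 CPM (396 to 634, n = 5 libraries) against 116 CPM (92.5 to 141, n = 6) in NK-like cells. Of 38 further induced genes tested, 28 were higher and 1 lower in monocyte-like cells, 9 and 19 in NK-like, 10 and 18 in neutrophil-like, and 17 and 11 in endothelial-like cells, beside the backgrounds above.

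Between knockout and control, 0 of the other pathway genes passed in any of the 9 classes. In NK-like cells 1 of 62 tested (a gene in 2 roles counted in both) was below an unadjusted p of 0.05, against 1.98% of all genes. This was Slfn8, at 36.1, 53.9 and 55.3 CPM in the controls and 31.6, 21.2 and 33.8 CPM in the knockouts (-0.63, SE 0.28, adjusted p = 0.9999 in edgeR). Its groups did not overlap, and those of Trim30d, at 43.7, 52.0 and 44.5 CPM against 34.1, 21.2 and 36.2 CPM (-0.46, SE 0.25), did not either. Groups without overlap were found for 546 of 7675 genes (7.11%), and their number among the other pathway genes was not counted. The kinase gene Jak1 (-0.21, SE 0.21) did not pass. Nor did the adaptors Mavs (0.62, SE 0.47) and Myd88 (-0.47, SE 0.42), the inhibitors Trim30a (-0.37, SE 0.21) and Socs3 (0.61, SE 0.47), or the genes known for interferon-gamma, Irgm1 (-0.47, SE 0.38) and Gbp2 (-0.30, SE 0.36).

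Over 76 sums of a class in a library, Irf7 followed the sum of the other members most closely (Pearson r = 0.777), before Parp14 (0.688) and Trim25 (0.65), and Bst2 (0.187) and Usp18 (0.212) followed it least. Among 9531 genes outside the members and the pathway list, those with the highest r with the members' sum were Slc15a3 (0.755), Map3k8 (0.717), Sirpa (0.716), Tor1aip1 (0.715), Phactr2 (0.701), Ifi207 (0.688), Trps1 (0.687), Psap (0.685), Parp8 (0.683) and Cd68 (0.676). Sirpa and Cd68 are known from macrophages and monocytes, and Ifi207 belongs to an interferon-inducible family. The sums share libraries, classes and depths, so these values are a description.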

How the data were processed

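The deposited files hold raw UMI counts per gene and barcode for 6 libraries, which the authors made, per the file headers, with Cell Ranger 7.0.1 (libraries 1 and 2) or 9.0.1 (libraries 3). The submitters' processing notes name only version 9.0.1, with GRCm39, and no other step of theirs is known from the sources used here. Libraries 1 and 2 hold called cells only, and libraries 3 hold all barcodes with hashtag counts. From these counts, a barcode was kept from 500 UMIs and 300 genes upwards if its mitochondrial share was 20% or less. In libraries 3 those not different from the profile of barcodes of at most 100 UMIs (10000 simulations, FDR 0.001) were dropped. The top Scrublet scores, at 0.8% per 1000 cells, were removed, because Scrublet's automatic threshold marked almost no cell. Cells in which no hashtag led were given to no mouse but kept in the library sums, 1306 in control 3 and 1518 in knockout 3. The gene UMIs in the files ranged from 4126740 to 122609032 per library.

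Cells were classed by the UMIs of marker genes (at least 2 markers, the next best class at most 0.5 of the score), with thresholds set after the data were seen, and 2354 ambiguous and 2661 uncalled cells were left out. UMIs were summed per library and class of at least 10 cells and tested with edgeR 4.0.16 quasi-likelihood fits on all genes that passed its filter, TMM scaling and Benjamini-Hochberg adjustment over all of them. DESeq2 1.42.0, total-count scaling, no filter, stricter cells, classes from clusters, mice as units, single libraries left out and a replicate block were the alternatives. CPM are UMIs scaled to the total of the class, and a zero is read as fewer than 3 counts, which covers counting error only. T-like and hepatocyte-like cells had fewer than 10 cells in knockout 2, so the fit over 6 libraries used 4 classes; the fit over 9 classes in 5 libraries, and the interaction in 5 libraries, were set after seeing this. Fits were tested on simulated data. R 4.3.3, Python 3.11.15 and scanpy 1.11.5 were used.

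The members, gene lists and comparisons were chosen with earlier results of these data known. Genes named with statistics are, per class between groups, every member that passed or else the 4 with the smallest p, and, per class between classes, the 4 with the largest absolute difference among those that passed; levels are given for 8 set members, and the pathway genes named in NK-like cells are the 2 with the smallest p per role, except 1 gene that is not reported here. Other members named by role were chosen after their values were seen. Libraries share the numbers 1 to 3 across groups. Deviations from the group means of same-numbered libraries correlated at 0.318, 0.268 and 0.243 in NK-like, 0.284, 0.264 and 0.216 in monocyte-like, 0.191, 0.138 and 0.48 in endothelial-like and 0.643, 0.379 and 0.035 in neutrophil-like cells, so the numbers were taken to pair the libraries in the first 3 of these classes. The comparisons of knockout and control above have no term for this pairing. It entered only as the replicate block among the alternatives.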

Additional observations from a re-analysis of the deposited data

Results flagged for a closer look

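Barcodes of at most 100 UMIs in the libraries numbered 3, which no comparison used, held member UMIs above the level that a count of 0 allows. The 32 members summed to 1437.6 CPM in control 3 and 933 CPM in knockout 3. Ifi27l2a made up 556 and 162 CPM of these sums and Bst2 212 and 209 CPM.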

How the results depend on the processing

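Between knockout and control, 0 members passed in any of the 9 classes under every alternative run, including a replicate block on the library number, the pairing of libraries, which gave 0 members in each class and changed no other call. In the classes without knockout 2 the block held the pairs numbered 1 and 3 only. The NK-like median was -0.06 with the block and the monocyte-like one 0.14. Over all results that answer a comparison 335 recomputed counts of passing members stayed the same or within a set ratio, and 35 moved. The other recomputed values were members' single differences, median differences and summed levels. Of these 1088 kept their call or stayed within their spread, 18 were weaker, 13 moved and 12 turned sign. The cause of these changes was not tested. The differences that turned sign had not passed: Ifih1 in NK-like cells (0.25, classes from clusters), Isg15 in hepatocyte-like cells (-0.066, mice as units), Isg15 in neutrophil-like cells (-0.13 in cells of 1000 UMIs and 10% mitochondrial counts, -0.15 without both libraries numbered 2), Ddx60 (0.067, the same) and Oasl2 there (0.032, clusters). Leaving out 1 library each, the neutrophil-like values ranged from -0.59 to 0.081 for Ddx60, from -0.31 to 0.49 for Isg15 and from -0.46 to 0.78 for Oasl2, and Ifi27l2a from -1.23 to 0.11 in endothelial-like and from -1.96 to 0.90 in hepatocyte-like cells, positive without control 3. Between 4 classes, members higher in endothelial-like cells were 3 with clusters, 2 in controls only, 10 with total counts, and 2 to 5 without single libraries (fewest without knockout 3); higher in NK-like cells 3 with no filter, 2 with the stricter call, total counts or neither library numbered 2, and 1 to 2 without single libraries; lower in NK-like cells 13 in controls only. Between 9 classes, the controls alone, an alternative that like the stricter call and total counts here was chosen after seeing the data, gave 1 higher and 7 lower in B-like, 5 lower in basophil- or mast-like, 1 higher in hepatocyte-like, 3 lower in NK-like, 1 lower in neutrophil-like, and 4 higher and 1 lower in pDC-like cells. The stricter call gave 6 lower in B-like and 2 lower in pDC-like cells, and total counts 0 higher in hepatocyte-like and 6 lower in neutrophil-like cells. Without single libraries there were 2 to 5 higher in B-like (fewest without knockout 1), 7 to 11 lower in basophil- or mast-like, 5 to 10 higher in NK-like, 2 to 5 lower in T-like and 2 to 6 lower in pDC-like cells (fewest without control 3 in these 4), 1 to 2 higher in hepatocyte-like cells (fewest without control 1 or knockout 3), and 0 to 1 in the interaction. The 10 endothelial-like cells of knockout 2 and 15 neutrophil-like cells there limit what can be seen in these classes.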
